A study of Homo sapiens with 4 samples.

Results

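DDIT4, the sestrins SESN2 and SESN3, the tuberous sclerosis genes TSC1 and TSC2, and 5 genes of the mTOR complexes (MTOR, RPTOR, RICTOR, DEPTOR and AKT1S1) were followed across a knockdown of MAOA, which encodes monoamine oxidase A, in human prostate cancer cells. These 10 genes were chosen by name as mTOR complex subunits and their inhibitors, with earlier results of these data known. All 10 of them were found among the 25343 genes of both tables and passed the filter on low values. RNA from 4 libraries was sequenced, 1 per group. In C4-2B ENZR, an enzalutamide-resistant line kept in 20 µM of that antiandrogen, and in LNCaP, an androgen-responsive line for which no drug is given, a control library carried a non-targeting hairpin and a knockdown library a hairpin against the MAOA coding sequence. Both hairpins were delivered by lentivirus with antibiotic selection, so all 4 cultures were transduced and selected, and both lines grew in 10% fetal bovine serum. The library codes of the 2 knockdowns differ, and whether both carry the same hairpin sequence is not given.

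mTOR is a kinase that works in 2 complexes. With RPTOR it forms mTORC1, which drives protein synthesis and cell growth when nutrients and growth factors are plentiful, and with RICTOR it forms mTORC2, which phosphorylates AKT. The TSC1-TSC2 complex turns off RHEB, the GTPase that activates mTORC1. DDIT4 (also called REDD1) is a stress-induced inhibitor of mTORC1 that acts through the TSC complex, and the sestrins hold mTORC1 back through the GATOR complexes, for which SESN2 acts as a leucine sensor. Much of this control acts on the proteins, through phosphorylation and location, which RNA levels do not show.

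The libraries held 23479051 to 52550452 recovered reads. MAOA itself fell to 66.8% of the control level in C4-2B ENZR and to 31.3% in LNCaP (limma adjusted p = 4.44e-12, but 0.315 in DESeq2). The 6 luminal prostate markers summed to 2342 to 3001 CPM (read counts per library, scaled by the depositors) in each library, and of 8 markers of basal, neuroendocrine, stromal, endothelial and immune cells, 4 or 5 had at most 3 reads in each library. COL1A1, a stromal collagen gene, was at 44.4 to 60.9 CPM, and the neuroendocrine marker SYP and the endothelial marker PECAM1 were at 0.976 to 2.23 CPM. Each line has its own table, normalized on its own, so ratios were taken within a line. The library codes end in a lane-like tag that control and knockdown of a line share and that differs between the lines. Line, lane and the enzalutamide of C4-2B ENZR therefore cannot be told apart. Below, the levels of a line's pair of libraries are given in the order control, knockdown.

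The stress-responsive inhibitors were higher after knockdown. DDIT4, SESN2 and SESN3 had more RNA in the knockdown library of both lines and rose over both lines together, and so did RICTOR, the defining subunit of mTORC2. In bulk RNA, more cells with a transcript and more of it per cell cannot be told apart. The core of the pathway differed little as deposited, with TSC1 at 1.01-fold and 1.00-fold and MTOR at 0.987-fold and 1.07-fold, values near 0 on the log2 scale whose mean turned negative under other scalings. "Rose" and "fell" mean an adjusted p under 0.05 in limma, with Benjamini-Hochberg adjustment, on the 2 within-line values of log2((knockdown CPM + 1)/(control CPM + 1)) for 13114 genes with a mean of at least 1 CPM in both tables. By that rule 4 of the 10 genes rose, against 4.22% of all genes tested. None fell, against 1.49% of all genes, and none did at an unadjusted p under 0.05 in limma on the deposited values, in edgeR with the deposited scaling or in DESeq2. AKT1S1 was lower at that level after centring, after rescaling to the same sum, and with recomputed TMM in limma and edgeR. The 10 genes were chosen with earlier results of these data known, so these shares describe them and do not test the group. Over all genes the split of 554 rises and 195 falls depended on the scaling, with 578 and 543 after centring on the median ratio and 351 and 653 after rescaling each library to the same sum. The median ratio of well-expressed genes was 0.13 (log2) in LNCaP. Relative to it DDIT4 was at 0.86, SESN2 at 0.87, SESN3 at 0.51, RICTOR at 0.49 and TSC2 at 0.19 there. On the same footing MTOR was at -0.04, TSC1 at -0.13, DEPTOR at -0.13, RPTOR at -0.24 and AKT1S1 at -0.34. The lines serve as the replicates of this test, with 1 residual degree of freedom against 276 prior ones, so its SE is pooled over genes and hardly holds the spread between the lines.

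**Figure D1:**
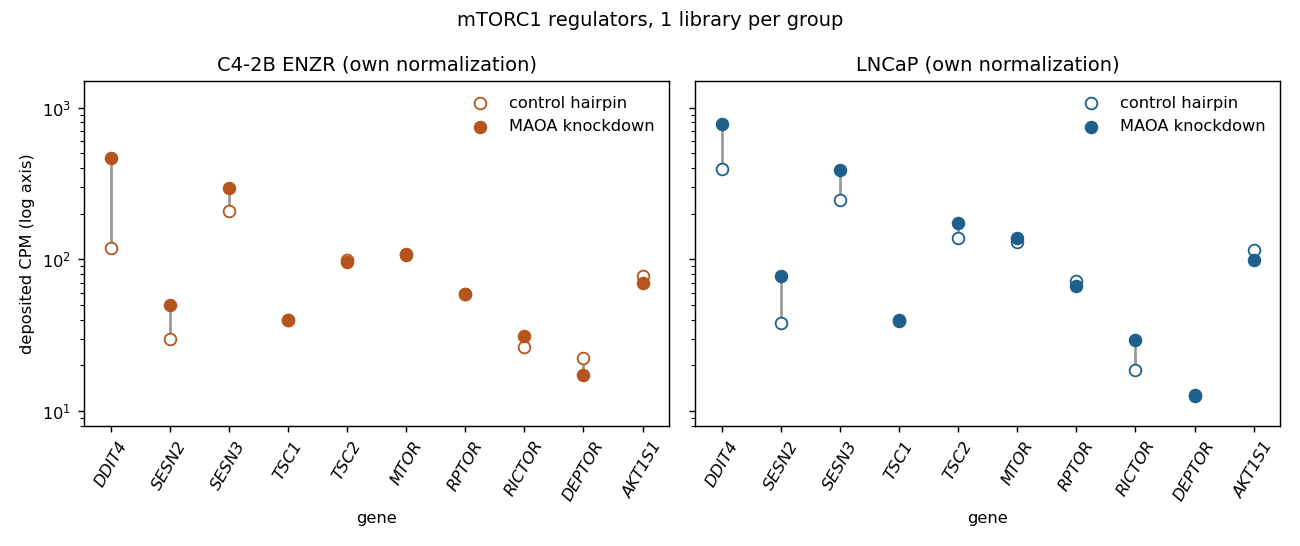
Deposited CPM (log axis) of the 10 genes in the control (open) and knockdown (filled) library of each line, with 1 library per group and each line normalized on its own. DDIT4, SESN2, SESN3 and RICTOR were higher in the knockdown of both lines, whereas the points of TSC1 coincide, and heights are not per transcript length, so they are not compared between genes.

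Within a line, a fold of 1.5 on the log2 scale with pseudocount was used as a description, since 1 library per group gives no test. In C4-2B ENZR, DDIT4 and SESN2 (2 of 10 genes) were at least 1.5-fold higher, against 1.59% of 13810 genes, and none was 1.5-fold lower, against 0.963%. DDIT4 alone was at least 2-fold higher there, against 0.29% of genes, and none was 2-fold lower, against 0.152%. In LNCaP, DDIT4, SESN2, SESN3 and RICTOR (4 of 10) were at least 1.5-fold higher, against 4.98% of 13787 genes, and none was 1.5-fold lower, against 1.57%. After centring, SESN3 and RICTOR fell short of 1.5-fold. SESN2 alone reached 2-fold in LNCaP as deposited, with DDIT4 just under it at 0.99 (log2), against 0.58% of genes, and none was 2-fold lower, against 0.254%. In both lines, DDIT4 and SESN2 were at least 1.5-fold higher, against 0.511% of 13114 genes. At any size, 5 of the 10 genes were higher in both lines, against 40% of genes, and AKT1S1 was lower in both, against 23.2%. Over the 10 genes the median log2 ratio was 0.01 for C4-2B ENZR and 0.21 for LNCaP, beside 0.00 and 0.11 over all genes tested, so the middle of the group lay near that of all genes.

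Among the inhibitors upstream of mTORC1, DDIT4 had the largest ratio of the 10 genes in C4-2B ENZR. It was at 119 CPM in the control and 465 CPM in the knockdown, from 2940 and 11447 reads. This is a 3.92-fold difference (95% counting interval 3.76 to 4.08, exact conditional), and it ranked 5 from the top of 13810 genes. In LNCaP the levels were 394 and 785 CPM, a 1.99-fold difference (interval 1.96 to 2.02) that ranked 85 of 13787. Both knockdown libraries were thus well above their controls, by more in C4-2B ENZR. The mean log2 ratio was 1.48 (limma SE 0.14, adjusted p = 2.42e-18). The SE does not measure the gap between 1.96 and 0.99 in the lines, and in DESeq2, which fits a dispersion to each gene, DDIT4 did not pass (adjusted p = 0.129, range over all fits 7.78e-23 to 0.129). Counting intervals cover counting error only, here and below.

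The DDIT4 gene overlaps another one. Of the 50-base stretches in its annotated transcripts, 36.4% also occur on the opposite strand in DDIT4-AS1 in GENCODE 29. No source used here says whether the counting used strand, so reads from this antisense gene could not be told apart from those of DDIT4. SESN2 shared none of its stretches with another gene on either strand, and of SESN3's 0.242% were shared with an antisense gene.

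SESN2, the leucine-sensing sestrin, had its larger ratio in LNCaP. The control held 38.3 CPM and the knockdown 77.9 CPM (2.03-fold, counting interval 1.93 to 2.15), and in C4-2B ENZR the levels were 29.8 and 50.0 CPM (1.67-fold, 1.53 to 1.84). The knockdown was above the control in both lines, by ratios closer to each other than those of DDIT4. Its mean log2 ratio was 0.87 (limma SE 0.13, adjusted p = 2.86e-08), and it passed in all 11 fits compared, with adjusted p up to 0.0483. SESN3, which FOXO factors are known to induce, was at 207 and 293 CPM in the C4-2B ENZR pair (1.42-fold, 1.37 to 1.47) and at 248 and 388 CPM in the LNCaP pair (1.56-fold, 1.53 to 1.60). Its mean log2 ratio was 0.57 (limma SE 0.13, adjusted p = 0.00155). Centred on each line's median ratio, SESN3 was at 0.51 in both lines.

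The paralogues outside the group did not pass. SESN1, the third sestrin gene, was at 38.3 and 45.7 CPM in the C4-2B ENZR pair and 16.8 and 22.2 CPM in the LNCaP pair, higher in both knockdowns, and did not pass (mean log2 0.32, limma adjusted p = 0.16). DDIT4L, a relative of DDIT4, was at 13.4 and 9.80 CPM in the C4-2B ENZR pair but at 2.43 and 3.66 CPM in the LNCaP pair. Its ratios thus had opposite signs in the lines, and it did not pass (limma adjusted p = 0.98), with a mean near 0 whose sign depended on the scaling.

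The letters upstream of the 4 genes that rose over both lines are shown. RefSeq promoters (GRCh38.p14, a newer build than the hg19 of the submitters' processing notes) were matched by symbol for 8 of the 10 genes, as 9 promoters. No entry was matched for DEPTOR and AKT1S1. The 250 bases before the annotated start are printed 5′ to 3′ on the gene's strand, at chr10:72273674-72273923 (plus strand) for DDIT4, chr1:28259268-28259517 (plus) for SESN2, chr11:95232476-95232725 (minus) for SESN3 and chr5:39074400-39074649 (minus) for RICTOR. Capitals mark matches to the hypoxia response core (ACGTG or GCGTG, either strand).
DDIT4: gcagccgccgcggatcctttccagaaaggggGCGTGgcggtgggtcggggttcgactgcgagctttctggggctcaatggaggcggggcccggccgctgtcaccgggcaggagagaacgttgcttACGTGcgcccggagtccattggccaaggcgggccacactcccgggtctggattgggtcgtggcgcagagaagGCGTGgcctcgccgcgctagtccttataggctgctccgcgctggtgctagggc
SESN2: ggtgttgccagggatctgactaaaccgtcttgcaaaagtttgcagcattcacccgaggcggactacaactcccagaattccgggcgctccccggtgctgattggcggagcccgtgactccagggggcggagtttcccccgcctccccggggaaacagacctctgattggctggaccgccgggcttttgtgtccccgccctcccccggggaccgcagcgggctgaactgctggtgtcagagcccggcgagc
SESN3: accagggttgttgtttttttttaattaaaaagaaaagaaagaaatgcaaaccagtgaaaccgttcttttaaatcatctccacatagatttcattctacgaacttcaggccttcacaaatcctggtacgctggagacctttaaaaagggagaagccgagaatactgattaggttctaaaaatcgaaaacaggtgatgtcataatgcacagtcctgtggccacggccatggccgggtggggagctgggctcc
RICTOR: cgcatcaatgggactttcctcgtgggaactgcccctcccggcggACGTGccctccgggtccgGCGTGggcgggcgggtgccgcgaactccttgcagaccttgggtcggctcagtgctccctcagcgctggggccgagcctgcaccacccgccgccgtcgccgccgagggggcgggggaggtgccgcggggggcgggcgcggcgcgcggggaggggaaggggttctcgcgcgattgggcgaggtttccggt

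DDIT4, a known target of hypoxia-inducible factors, had 3 such cores, beginning 219, 125 and 53 bases before the start, and RICTOR had 2, at 206 and 188 bases. Among 35116 promoters, 43.2% held at least 1 core in this window, counted on both strands, and 7.76% held at least 3. SESN2 and SESN3 held none. On both strands, 5 other motifs were searched: TGATGNAA, the composite element of ATF4 and C/EBP factors (3.14% of promoters), a palindromic glucocorticoid receptor element (0.328%), GTAAACA, a FOXO element (2.98%), CACGTG, an E-box that contains the hypoxia core (6.34%), and TGACNNNGC, an antioxidant element (10.9%). None of these matched in the 4 printed windows, which says only that these letters are not in 250 bases. Of the 2 promoters of TSC2, 1 held TGATGNAA 110 bases before the start, the antioxidant motif at 121 bases and the E-box at 114 bases, which counts as 2 overlapping hypoxia cores, 1 on each strand. MTOR held 1 hypoxia core and RPTOR 2. The printed windows held 68.8% G and C for DDIT4, 65.6% for SESN2, 42.8% for SESN3 and 76.0% for RICTOR, beside a median of 58.0% over all promoters.

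The TSC genes, through which DDIT4 acts, did not pass. TSC1, the scaffold of the complex, was at 39.7 and 40.1 CPM in the C4-2B ENZR pair and 39.5 and 39.6 CPM in the LNCaP pair. Knockdown and control were nearly equal in both lines as deposited, with counting intervals of 0.922 to 1.10 and 0.944 to 1.07-fold, and the mean log2 ratio of 0.01 became -0.05 after centring (limma adjusted p = 0.982 as deposited). TSC2, the subunit that acts on RHEB, was at 99.1 and 96.5 CPM in the C4-2B ENZR pair and at 139 and 175 CPM in the LNCaP pair. It was thus level in the first and higher in the second (1.26-fold, counting interval 1.22 to 1.30), and did not pass over both lines (limma adjusted p = 0.585). Of the 50-base stretches of TSC2, 6.63% occur on the opposite strand in other genes, its neighbours PKD1 and NTHL1 among them.

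**Figure D2:**
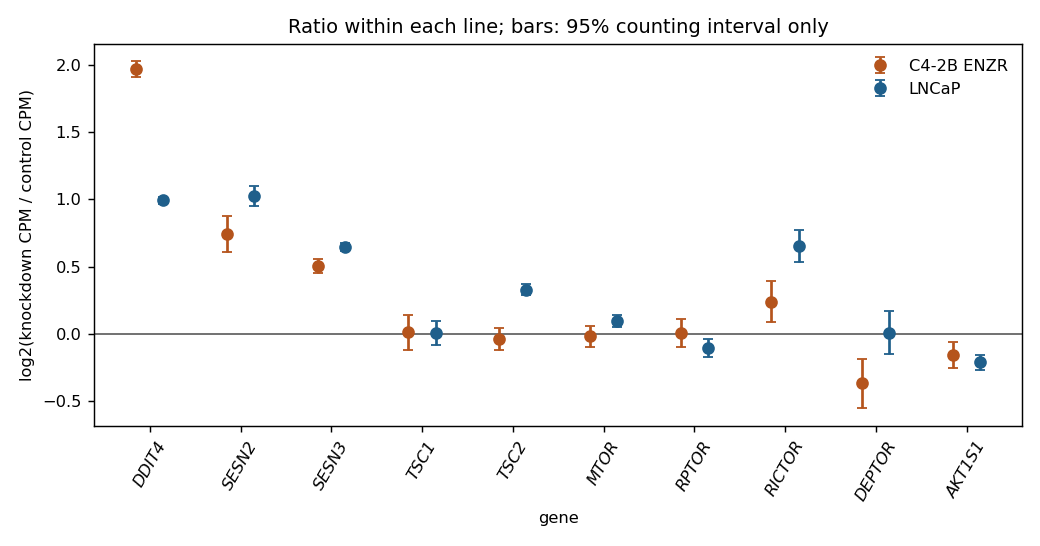
Log2 of knockdown over control CPM, without a pseudocount, for the 10 genes in C4-2B ENZR (orange) and LNCaP (blue), with bars for the 95% counting interval only. DDIT4 was at 1.97 and 0.99, SESN2 at 0.74 and 1.02, and the intervals of TSC1 include 0 in both lines.

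Of the 5 genes of the mTOR complexes, only RICTOR passed in limma. It was at 26.3 and 31.1 CPM in the C4-2B ENZR pair (1.18-fold, counting interval 1.06 to 1.31) and at 18.6 and 29.2 CPM in the LNCaP pair (1.57-fold, 1.45 to 1.70). Both knockdowns were higher, and the larger ratio was that of LNCaP. The mean log2 ratio was 0.43 (limma SE 0.14, adjusted p = 0.0393). The call depended on the scaling, since RICTOR did not pass after centring on the median ratio (adjusted p = 0.0546), after rescaling to the same sum (0.12), or with edgeR and recomputed TMM (0.106), and the range over all fits was 0.0275 to 0.294. Of its 50-base stretches 1.21% were shared with other genes on the same strand and 2.35% on the opposite one.

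MTOR, the kinase itself, was at 109 and 107 CPM in the C4-2B ENZR pair and 130 and 139 CPM in the LNCaP pair, and its mean log2 ratio of 0.04 as deposited became -0.03 after centring. RPTOR, which recruits the substrates of mTORC1, was at 59 and 59.3 CPM in the C4-2B ENZR pair and 72.0 and 66.9 CPM in the LNCaP pair. Neither gene passed (limma adjusted p = 0.914 and 0.887). As deposited, the largest departure between knockdown and control was that of RPTOR in LNCaP, 0.928-fold. Centred on the median ratio of LNCaP, RPTOR was at -0.24 (log2) there. The inhibitory subunits did not pass either. DEPTOR, which binds and inhibits mTOR, was at 22.4 and 17.3 CPM in the C4-2B ENZR pair (0.775-fold, counting interval 0.681 to 0.881) and at 12.6 and 12.7 CPM in the LNCaP pair (1.01-fold, 0.903 to 1.12, and below 1 when centred). AKT1S1, which encodes the mTORC1 inhibitor PRAS40, was at 77.5 and 69.5 CPM in the C4-2B ENZR pair (0.896-fold) and at 115 and 99.3 CPM in the LNCaP pair (0.863-fold), lower in both knockdowns. Neither passed in any of 11 fits, with limma adjusted p = 0.589 for DEPTOR and 0.447 for AKT1S1. AKT1S1 shares 5.08% of its 50-base stretches with TBC1D17 on the opposite strand.

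Read ratios of 2 genes inside a library do not depend on how libraries were scaled, and 6 pairs were compared. DDIT4 reads per SESN2 read went from 3.98 to 9.31 in C4-2B ENZR, a log2 difference of 1.23 (counting interval 1.08 to 1.37). In LNCaP they went from 10.3 to 10.1 (-0.03, interval -0.11 to 0.05), so both genes had the same ratio there within counting error. RPTOR reads per RICTOR read went from 2.24 to 1.91 in C4-2B ENZR (-0.23, -0.42 to -0.05) and from 3.88 to 2.29 in LNCaP (-0.76, -0.89 to -0.63). The ratio of the transcripts that define mTORC1 and mTORC2 was therefore lower in both knockdown libraries, whatever the scaling. SESN2 per SESN3 was higher in both lines (0.24, 0.10 to 0.38, and 0.38, 0.30 to 0.46), and AKT1S1 per RPTOR lower in both (-0.17, -0.31 to -0.03, and -0.10, -0.19 to -0.02). TSC1 per TSC2 was lower in LNCaP (-0.32, -0.42 to -0.23) but not distinguishable from 0 in C4-2B ENZR (0.05, -0.10 to 0.20). DEPTOR per MTOR was lower in C4-2B ENZR (-0.35, -0.55 to -0.15) but not distinguishable from 0 in LNCaP (-0.09, -0.25 to 0.08). Whether the lines differ was not tested, since the 4 libraries leave no degrees of freedom for it.

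**Figure D3:**
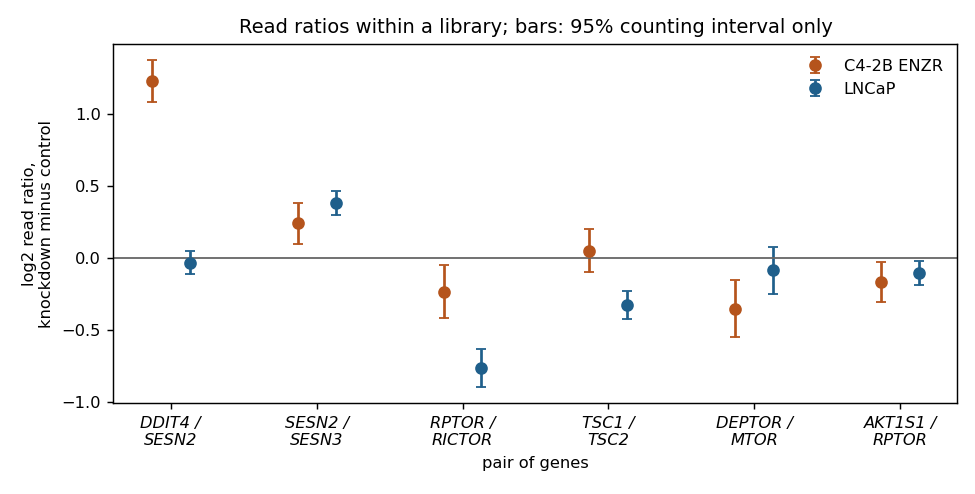
Log2 read ratio of 2 genes in the same library, knockdown minus control, for 6 pairs in C4-2B ENZR (orange) and LNCaP (blue), with bars for the 95% counting interval only. DDIT4 per SESN2 was 1.23 higher in C4-2B ENZR and within counting error of 0 in LNCaP, and RPTOR per RICTOR was below 0 in both.

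To order the 4 libraries, the recovered reads were put on a single scale with TMM over all 4 libraries. On that scale DDIT4 was lowest in the C4-2B ENZR control (117 CPM), close in the LNCaP control (442) and the C4-2B ENZR knockdown (455), and highest in the LNCaP knockdown (810). SESN2 had the same order at 29.3, 42.9, 48.9 and 80.4 CPM, and so did SESN3 at 203, 278, 287 and 400 CPM. The LNCaP control and the C4-2B ENZR knockdown were thus neighbours for all 3 genes. RICTOR was at 20.8 CPM in the LNCaP control, 25.8 in the C4-2B ENZR control, and 30.1 and 30.4 in the LNCaP and C4-2B ENZR knockdowns. Between the controls, the LNCaP level of DDIT4 was higher by 1.92 (log2), that of AKT1S1 by 0.76 and that of TSC2 by 0.68, whereas DEPTOR was at -0.64 and RICTOR at -0.31. With 1 library per group no spread is at hand to say which neighbours in these orders differ. Levels set between the lines also mix line, lane and the enzalutamide of C4-2B ENZR, which cannot be told apart.

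The rest of the pathway was read from 83 genes in 8 lists, of which 80 passed the filter. Of these 6 rose and none fell in limma, beside 4.22% and 1.49% of all genes, with 1 lower at an unadjusted p under 0.05. The counts were 8 and 0 in edgeR with the deposited scaling and 3 and 0 in DESeq2. Their median mean log2 ratio was 0.11, beside 0.06 over all genes tested.

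Next to mTOR, none of 6 tested genes for other subunits and assembly factors passed, with mean log2 ratios from -0.14 for TELO2, which helps to assemble the kinase, to 0.10 for MLST8, a subunit of both complexes, which was at -0.01 after rescaling to the same sum. None of the 3 genes of the TSC list passed either. RHEB, the GTPase that TSC2 turns off, was at 79.1 and 88.0 CPM in the C4-2B ENZR pair and at 77.1 and 89.3 CPM in the LNCaP pair (limma adjusted p = 0.456), and RHEBL1, its relative, had the highest mean log2 ratio of that list (0.34). Of 16 genes of the GATOR complexes, through which sestrins act, KICSTOR and other amino acid sensors, none passed. They ran from SEH1L, a GATOR2 subunit (-0.23), to GATSL3, the arginine sensor now called CASTOR1, which was at 12.9 and 15.9 CPM in the C4-2B ENZR pair and at 22.0 and 32.6 CPM in the LNCaP pair (limma adjusted p = 0.0622, and 0.0412 in edgeR with the deposited scaling, where it passed).

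At the lysosome, beside 4.22% of all genes, 1 of 13 genes for Rag GTPases, Ragulator and their regulators rose. This was RRAGD, a Rag GTPase gene and known target of TFE factors, at 13.2 and 21.7 CPM in the C4-2B ENZR pair and 17.8 and 28.0 CPM in the LNCaP pair, with close ratios in both lines (mean log2 0.65, limma adjusted p = 0.000657). It missed the threshold in DESeq2 (adjusted p = 0.0529) and without the filter on low values (0.145). RRAGA, the lowest of the list, had a mean of -0.08. Of 15 tested genes of PI3K, AKT and AMPK signalling none passed, from PIK3CB, a PI3K catalytic subunit (-0.16), to PRKAB2, a regulatory subunit of AMPK (0.38, limma adjusted p = 0.0551). PRKAB2 passed in 3 of 11 fits, with adjusted p from 0.045.

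Of 16 substrates and outputs of mTORC1, 2 rose, beside 4.22% of all genes. GRB10, an adaptor that mTORC1 phosphorylates and that dampens insulin signalling, was at 512 and 678 CPM in the C4-2B ENZR pair and at 104 and 159 CPM in the LNCaP pair (mean log2 0.51, limma adjusted p = 0.00736, passing in 10 of 11 fits). EIF4EBP1, the translation repressor that mTORC1 inactivates and a known ATF4 target, was at 72.6 and 107 CPM in the C4-2B ENZR pair and 173 and 218 CPM in the LNCaP pair (0.44, limma adjusted p = 0.0142), and passed in 7 of 11 fits, with adjusted p up to 0.205. Its relative EIF4EBP2 was at 223 and 217 CPM in the C4-2B ENZR pair and at 160 and 108 CPM in the LNCaP pair and did not pass as deposited (-0.29, limma adjusted p = 0.167), but it fell after centring (-0.36, adjusted p = 0.0175) and after rescaling to the same sum (-0.40, adjusted p = 0.0164). EIF4B did not pass as deposited (mean log2 0.46, limma adjusted p = 0.125). It rose after centring, after rescaling to the same sum and in DESeq2. In this list 13 of 16 genes had higher values in both knockdowns, beside 40% of all genes tested. The count was 3 of 3 in the TSC list, 7 of 9 transcription factors and 1 of 2 paralogues. It was 5 of 13 for Rag and Ragulator genes and 5 of 15 for PI3K, AKT and AMPK genes. For GATOR and sensors it was 3 of 16, and for mTOR subunits and assembly 0 of 6. Over all 80 tested pathway genes it was 37.

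**Figure D4:**
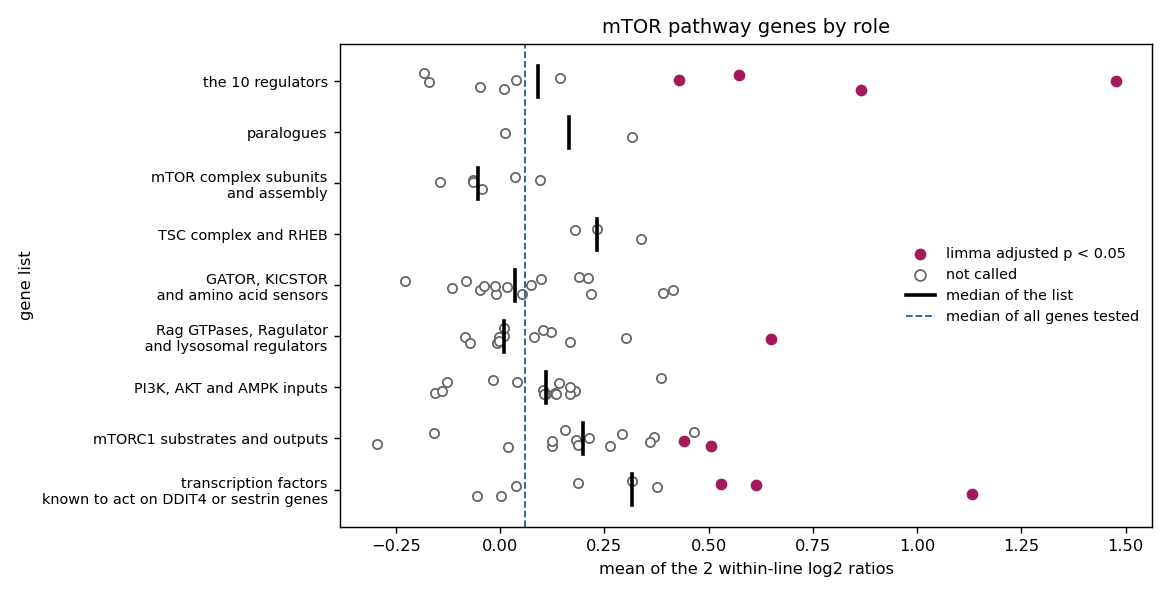
Mean of the 2 within-line log2 ratios for each tested gene, by role in the mTOR pathway (rows), with filled points for limma adjusted p under 0.05, black bars for list medians and a dashed line for the median of all genes tested (0.06). The 4 genes that rose among the 10 regulators lie between 0.43 and 1.48, and 6 genes of the other lists rose.

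Of 10 transcription factors known to act on DDIT4 or sestrin genes, 9 were tested and 3 rose, beside 4.22% of all genes. ATF4, the effector of the amino acid response, had log2 ratios of 0.54 in C4-2B ENZR and 0.69 in LNCaP (limma adjusted p = 0.0031, passing in 10 of 11 fits). DDIT3, the stress factor CHOP, was at 26.2 and 39.0 CPM in the C4-2B ENZR pair, with 19.1 and 64.6 CPM for the LNCaP pair (mean log2 1.13, limma adjusted p = 3.99e-12). It did not pass in DESeq2 (adjusted p = 0.292) or without the filter on low values (0.133). CEBPB, a partner of ATF4, was at 44.1 and 67.8 CPM in the C4-2B ENZR pair and 67.1 and 92.1 CPM in the LNCaP pair (0.53, limma adjusted p = 0.00168). It passed in 8 of 11 fits, and not with recomputed TMM in limma (adjusted p = 0.0575), in DESeq2 (0.053) or without the filter (0.133). None of the other factors passed. FOXO3 was at 130 and 164 CPM in the C4-2B ENZR pair and 154 and 206 CPM in the LNCaP pair (limma adjusted p = 0.0515, and 0.0275 after centring and 0.046 among genes with a mean of at least 5 CPM, where it rose). HIF1A was at 130 and 139 CPM in the C4-2B ENZR pair and 110 and 159 CPM in the LNCaP pair (limma adjusted p = 0.12). NFE2L2, the antioxidant factor, had a mean log2 ratio of 0.04 as deposited and -0.03 after centring. NR3C1, the glucocorticoid receptor gene, was close to the floor, with 7 and 13 reads for the C4-2B ENZR pair and 8 and 5 for the LNCaP pair, and was not tested. The larger ratio of DDIT3 was that of LNCaP (1.71, beside 0.56 in C4-2B ENZR), whereas DDIT4 had its larger ratio in C4-2B ENZR. Whether any factor has a part in the ratios of DDIT4 or the sestrins was not tested.

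Genes with the most similar pair of ratios were sought among 10713 others with a mean of at least 5 CPM in both tables, by Euclidean distance between the 2 within-line log2 ratios. SESN2 had close neighbours in TULP3 (distance 0.03), TRIB3, a stress-induced inhibitor of ATF4 (0.05), LINC01133 (0.07), the claudin gene CLDN4 (0.08) and COX7C, of the respiratory chain (0.09). The gene nearest to DDIT4 was SLPI, a protease inhibitor, at 0.36. Next came CHAC1, which degrades glutathione (0.46), TSC22D3, a glucocorticoid-induced gene (0.56), RPL21P28 (0.61) and the stress cytokine GDF15 (0.64). RPL21P28 is a ribosomal protein pseudogene, whose reads are uncertain. With ratios from 2 lines only, each likeness rests on 2 values. Since 0.29% of genes were at least 2-fold higher in C4-2B ENZR, few could lie near DDIT4. Its distances are therefore not set against those of SESN2.

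**Figure D5:**
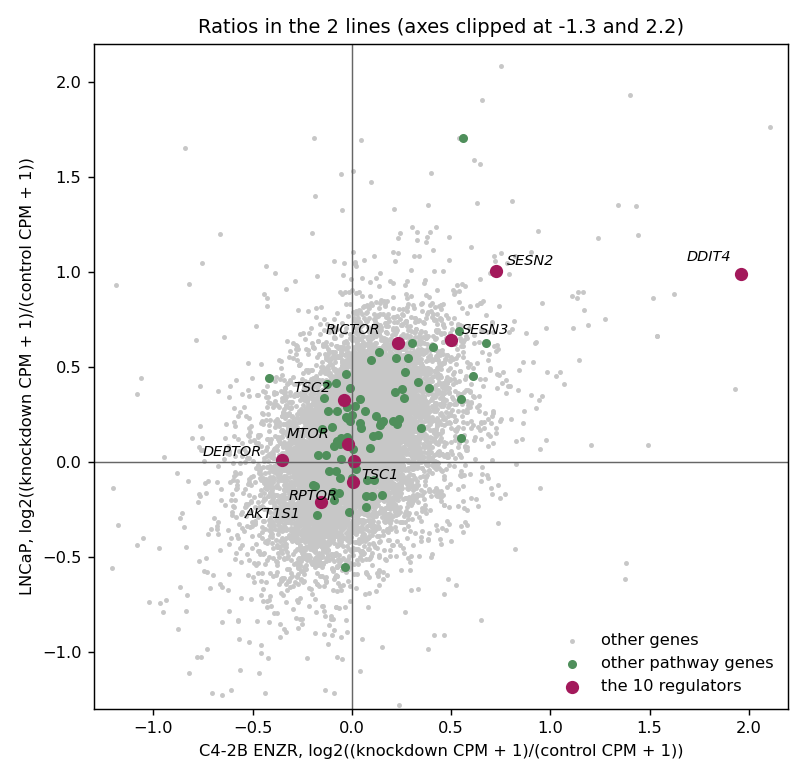
Log2((knockdown CPM + 1)/(control CPM + 1)) in C4-2B ENZR (horizontal) and LNCaP (vertical) for genes with a mean of at least 1 CPM in both tables, with other pathway genes in green and the 10 regulators in purple; the axes leave out the most extreme genes. DDIT4 lies far to the right at 1.96 and 0.99, and SESN2 at 0.72 and 1.01, whereas TSC1, MTOR and RPTOR lie near 0 in both.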

How the data were processed

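Single reads of 50 nt from total RNA of 4 libraries were processed by the submitters with Bowtie2 2.1.0, RSEM 1.2.15 and edgeR on hg19, per the submitters' processing notes; no source used here gives the annotation, filters or strand setting. The authors deposited 1 table per line of CPM scaled by TMM. The deposited LNCaP values are described as a signal, since the knockdown column sums to 1.06e+06 and the steps of its scaling are not given. In LNCaP the deposited scale of knockdown over control was 0.216 (log2), beside 0.098 with TMM recomputed on that pair's recovered reads. LNCaP ratios as deposited are thus higher than with that TMM. In C4-2B ENZR the 2 scales were 0.00803 and 0.00804. All values (100%) were whole multiples of 1 read within 0.01 read, so reads were recovered, and 3 reads equal 0.0529 to 0.122 CPM. Log2 ratios used a pseudocount of 1, which understates changes of low genes. Tests used limma 3.58.1 in R 4.3.3 (trended prior). edgeR 4.0.16 and DESeq2 1.42.0 on recovered reads, with line as a block, were alternatives (175 rises and 128 falls in edgeR with recomputed TMM, 584 and 205 with the deposited scaling), and scripts were tested on simulated data. Nothing in the labels shows separate cultures within a group, so no p-value measures the spread between cultures. Those of the main limma fit rest on an SE pooled over genes. Intervals of single ratios are Clopper-Pearson, those of pairs Wald, at 95%. Of 108 listed genes all 108 matched a symbol, 4 by an older one. The genes, lists and tests were chosen with earlier results of these data known. Named genes were the 10 regulators, SESN1, DDIT4L, MAOA, pathway genes that passed, the highest and lowest of each list, the 6 most abundant factors and the 5 nearest genes of DDIT4 and of SESN2. COL1A1, SYP, PECAM1, NR3C1 and EIF4B were named after their values were seen. 1 of the 6 factors is not reported here.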

Additional observations from a re-analysis of the deposited data

Results flagged for a closer look

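DDIT4L, the relative of DDIT4, had log2 ratios of opposite sign in the lines, -0.418 in C4-2B ENZR (332 and 241 reads) and 0.443 in LNCaP (138 and 179 reads), with counting intervals clear of 0 in both. The difference between the lines was not tested.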

How the results depend on the processing

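Each group has 1 library and the labels give no replicate numbers, so libraries could be paired only by line. The within-line ratio, and line as a block in edgeR and DESeq2, already do this. Leaving out a library leaves 1 ratio and no test, so it was not run. SESN2 passed in all 11 fits, SESN3 in 10, DDIT4 in 9 and RICTOR in 5. Without a filter on low values 1 regulator and 0 pathway genes rose and DDIT4 did not pass (1.48, adjusted p = 0.0558), with 14 genes rising and 6 falling in all. In that fit the prior degrees of freedom were 7.70. In DESeq2 2 regulators (SESN2 and SESN3) and 3 pathway genes (ATF4, EIF4B and GRB10) rose. Over all genes 131 rose and 90 fell in DESeq2, with DDIT4 at 1.42 (adjusted p = 0.129). DESeq2 gave no adjusted p for 3560 genes, 10 of the 80 pathway genes among them. With TMM recomputed over the 4 libraries 118 genes rose and 76 fell, and in edgeR with recomputed TMM 175 and 128. Centring on the median ratio gave 578 rises and 543 falls in all, with 8 rises and 1 fall (EIF4EBP2) among pathway genes. Rescaling to the same sum gave 351 rises and 653 falls in all. Among pathway genes it gave 7 rises and 2 falls (EIF4EBP2 and SEH1L). Mean log2 ratios near 0 changed sign under centring, rescaling to the same sum, recomputed TMM in limma, recomputed TMM in edgeR and DESeq2. In this order TSC1 went from 0.01 to -0.0548, -0.0992, -0.0508, -0.0558 and -0.0512, MTOR from 0.04 to -0.0252, -0.0715, -0.0222, -0.0239 and -0.0203, and NFE2L2 from 0.04 to -0.0262, -0.0714, -0.0226, -0.0247 and -0.0211. DDIT4L went from 0.01 to -0.0511, -0.0726, -0.03 and -0.0221 under the first 4 of these and to -0.0474 with a pseudocount of 5, and MLST8 to -0.0144 when rescaled. Centring subtracts each line's median log2 ratio, -0.00718 in C4-2B ENZR and 0.134 in LNCaP, from the ratio of every gene alike. Why signs changed under the other settings was not tested. Of the other means over both lines, 351 kept direction and call, 34 lost the call and 9 gained it.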
